A study of Mus musculus with 6 samples.

Results

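The fast skeletal muscle isoforms described here are 10 genes, chosen by name with earlier results of these data known. They are Mybpc1, Actn3, Tnnt3, Tnni2, Tnnc2, Mylpf, Myh2, Myh4, Atp2a1 and Casq1. Each was read through the probe set whose single gene symbol in the platform annotation is that name, which gave 10 probe sets of 35556 in the table. The arrays measured total RNA of the left ventricle in male mice on a C57BL/6 background, 3 from mice lacking MURC and 3 from wild-type mice. MURC is the muscle-restricted coiled-coil protein encoded by Cavin4, which is found at caveolae, the small pits of the muscle cell membrane. The knockout mice were 11, 11 and 13 weeks old (replicates 1 to 3) and the wild-type mice 13, 13 and 12 weeks. The labels name no treatment and do not say whether the gene was deleted in all cells or in heart muscle alone. They also do not state that the 3 samples of a genotype are 3 animals. The ages show at least 2 animals in each genotype. The p-values cover only the spread among these arrays, part of which may be technical.

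Striated muscle builds its contractile apparatus from protein families in which different genes serve fast skeletal fibres, slow skeletal fibres and heart. In the adult ventricle the cardiac or slow gene of each family supplies nearly all of the protein, and the fast gene is largely silent. Some skeletal genes, Acta1 above all, are known to be re-expressed in a stressed heart, and skeletal muscle of the chest wall or diaphragm can also enter a heart sample. Mybpc1 encodes the slow skeletal form of myosin-binding protein C, although it was placed among the fast isoforms here.

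The 10 fast isoforms gave low to middling signals in both genotypes, and none differed between genotypes past the adjusted threshold. Mybpc1 was the 1 member whose arrays did not overlap between genotypes, at a log2 signal of 3.94 ± 0.20 against 3.63 ± 0.08 in wild-type mice (SD, n = 3). The other 9 overlapped, with log2 differences between -0.14 for Atp2a1 and 0.21 for Casq1. The cardiac genes of the same families stood at or above the 98.6th percentile of every array in both genotypes.

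Cavin4, the targeted gene, measured 5.38, 5.74 and 5.59 on the knockout arrays against 8.75, 8.62 and 8.07 on the wild-type arrays, so every knockout array lay below every wild-type array. The difference was -2.91 on the log2 scale (SE 0.18, adjusted p = 0.012 in limma). Medians of the 6 arrays lay between 4.60 and 4.71, and arrays correlated between 0.985 and 0.989 over all probe sets. Of 24898 probe sets tested, 1, that of Cavin4, passed the adjusted threshold of 0.05, or 0.00402%. The call of Cavin4 was lost when array 1 or 3 of the knockout or array 1 of the wild type was dropped (adjusted p of 0.0646, 0.118 and 0.0777), while 130 probe sets passed after quantile normalization and 361 when only annotated ones were tested. At an unadjusted p under 0.05 there were 3417, or 13.7%, of which 1172 were higher and 2245 lower, against 1685 and 1767 after quantile normalization. In 4727, or 19%, the genotypes did not overlap.

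Sequence upstream of the transcription start is shown for 3 members and for the cardiac counterparts of a pair of them, because the fast and cardiac proteins of a pair do the same work while only the cardiac gene is among the brightest of the arrays. Tnnc2 and Casq1 were the members for which both the gene and its counterpart, Tnnc1 or Casq2, had a full 250 bases clear of the gene, and Mybpc1 was the member whose genotypes separated. The sequences come from RefSeq (GRCm38.p6), run 5′ to 3′ on the gene's strand and stop before the first annotated base of the gene. Capitals mark E-boxes (CANNTG), which muscle regulatory factors of the MyoD family bind, and the MCAT element (CATTCC, in either orientation), which TEAD factors bind.
Tnnc2, chr2:164779735-164779984 (- strand): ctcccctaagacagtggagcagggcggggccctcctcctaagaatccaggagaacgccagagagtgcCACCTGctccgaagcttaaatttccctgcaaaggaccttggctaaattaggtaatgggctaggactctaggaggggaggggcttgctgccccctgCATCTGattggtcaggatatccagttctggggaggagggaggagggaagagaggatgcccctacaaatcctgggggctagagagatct
Tnnc1, chr14:31208062-31208311 (+ strand): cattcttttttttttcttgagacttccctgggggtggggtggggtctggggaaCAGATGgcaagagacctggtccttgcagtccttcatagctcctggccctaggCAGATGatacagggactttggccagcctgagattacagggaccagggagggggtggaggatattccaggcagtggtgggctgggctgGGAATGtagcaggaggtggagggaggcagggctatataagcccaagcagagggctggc
Casq1, chr1:172219896-172220145 (- strand): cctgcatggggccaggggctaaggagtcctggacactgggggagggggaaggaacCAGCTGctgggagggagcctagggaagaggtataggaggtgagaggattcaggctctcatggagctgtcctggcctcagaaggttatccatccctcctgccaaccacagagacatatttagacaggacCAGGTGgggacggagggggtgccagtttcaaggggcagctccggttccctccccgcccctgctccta
Casq2, chr3:102086165-102086414 (+ strand): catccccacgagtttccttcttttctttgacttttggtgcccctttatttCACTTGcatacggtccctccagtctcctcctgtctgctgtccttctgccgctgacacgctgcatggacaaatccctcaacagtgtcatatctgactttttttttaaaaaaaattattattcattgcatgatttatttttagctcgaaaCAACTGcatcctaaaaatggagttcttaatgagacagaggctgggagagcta
Mybpc1, chr10:88605230-88605402 (- strand): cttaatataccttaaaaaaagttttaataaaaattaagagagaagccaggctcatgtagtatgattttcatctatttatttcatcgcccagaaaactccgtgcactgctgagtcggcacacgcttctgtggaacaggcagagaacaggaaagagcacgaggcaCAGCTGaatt
The Mybpc1 sequence is 173 bases long because the annotated gene extends upstream of the listed start, and the overlapping bases are not shown. RefSeq sequence was matched for 7 of 10 members and 8 of 9 counterparts. Within 250 bases upstream of a start, 6 of the 7 members and 8 of the 8 counterparts held an E-box on either strand, against 66.2% of all 32851 promoters of that length. An MCAT element stood in 1 of the 7 members, Myh4, and in 3 of the 8 counterparts, against 12.6% of all promoters. The units differ, since a gene counted if any of its listed starts had the motif, while the shares count single promoters. Tnnt2 and Myl2 had more than 1 listed start. No 2 motifs overlapped in these genes. A match of letters is a description of the sequence and shows no binding.

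Signal level was set against the 30th percentile of each array, which lay between 3.41 and 3.53 on the log2 scale. Of the 10 members, 8 stood at or above it on all 6 arrays, against 64.7% of all probe sets and 73.4% of those with 1 symbol. Mylpf was below it on 1 array and Myh4 on 5. Over all members and arrays the percentile ran from 22.8 for Myh4 to 70.5 for Casq1. Against the 50th percentile, 3 members stayed above on every array, namely Tnnt3, Tnni2 and Casq1, and against the 20th percentile all 10 did.

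**Figure D1:**
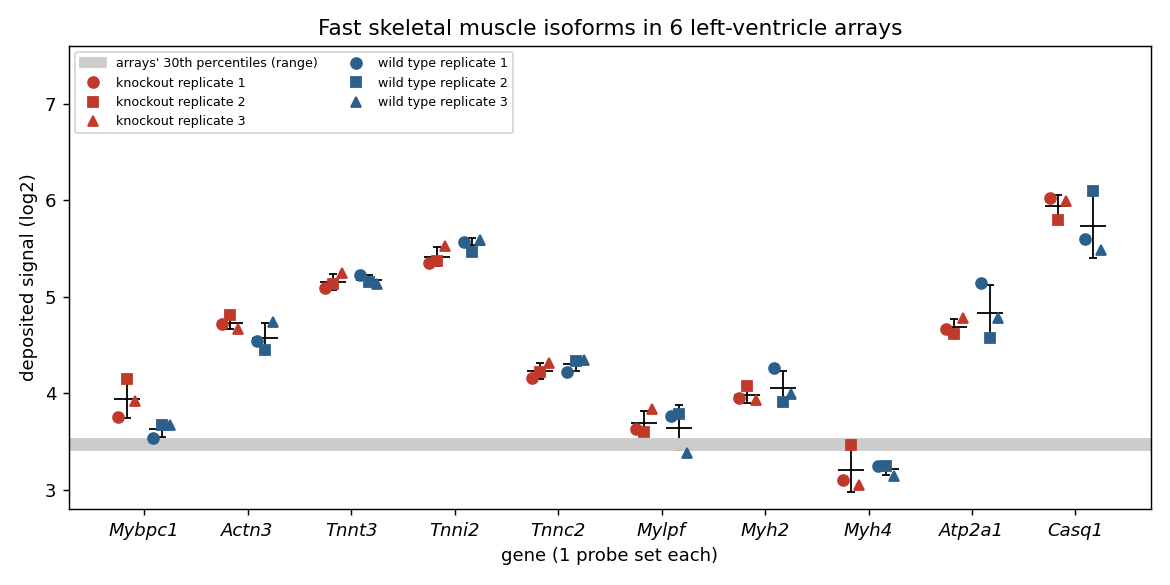
Deposited log2 signal of the 10 genes on each array, with red symbols for the 3 knockout and blue symbols for the 3 wild-type arrays, shape for the replicate, black marks for mean and SD, and a grey band for the range of the arrays' 30th percentiles (3.41 to 3.53). Myh4 lies around or below the band, Casq1 is the brightest at up to 6.10, and only for Mybpc1 do all red symbols lie above all blue ones.

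Genes known for other organs, among them the liver gene Alb, the protamine gene Prm1 of testis, the glucagon gene Gcg and the growth hormone gene Gh, gave a measure of the signal without a known source in the ventricle. Of 20 such genes 19 had a named probe set, and 8 of these 19 stood at or above the 30th percentile on all 6 arrays. Their percentiles ran from 3.3 to 58.5, the highest being the liver gene Ahsg. Only Tnni2, between the 60.6th and 63.7th percentile, and Casq1, between the 62.4th and 70.5th, exceeded that range on every array, and Tnnt3 crossed its upper end at 57.0 to 58.9. The other 7 members lay inside it on all arrays. The targeted gene Cavin4 stood at the 60.9th, 65.7th and 63.7th percentile on knockout arrays 1 to 3, which the ranges of Tnni2 and Casq1 overlap. What part of that Cavin4 signal is its own RNA was not tested. Probe sets differ in affinity, so a percentile is no amount of RNA, and the 30th percentile is no detection call.

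**Figure D2:**
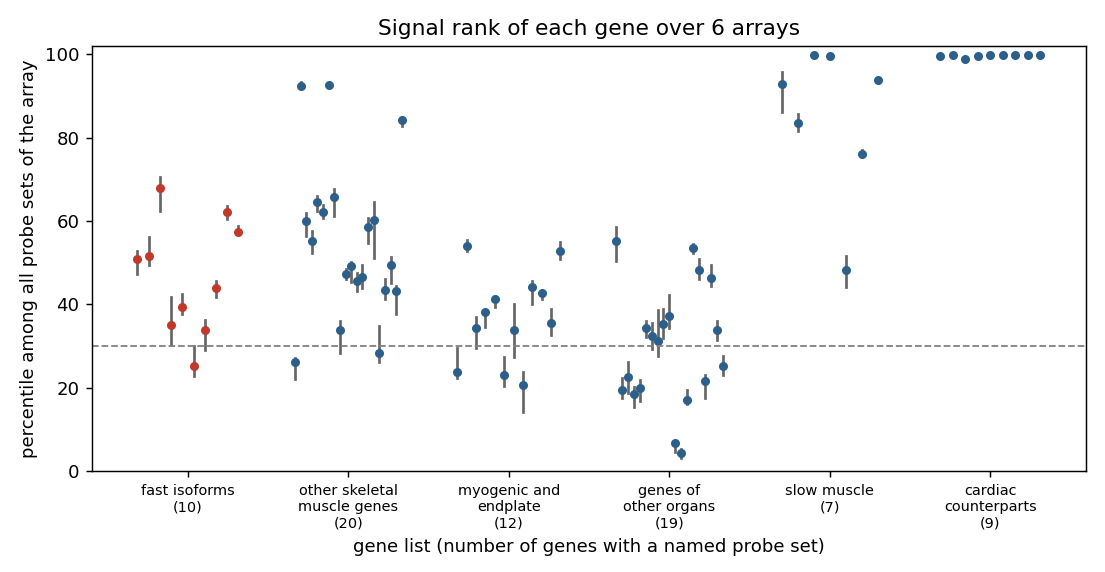
Percentile of each gene among all probe sets of an array (vertical axis), as median (point) and range over the 6 arrays (line), for 6 gene lists with the number of named genes in brackets; the dashed line is the 30th percentile. The 9 cardiac counterparts lie at the top, from 98.6 up, and the fast isoforms (red) spread from 22.8 to 70.5.

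Among the thick filament genes, Mybpc1 measured 3.76, 4.15 and 3.92 on knockout arrays 1 to 3 against 3.54, 3.67 and 3.67 on the wild-type arrays. The lowest knockout array was 0.09 above the highest wild-type array, a gap smaller than the knockout SD of 0.20. The log2 difference was 0.32 (SE 0.14, 95% interval 0.00 to 0.63), or 1.25-fold, with an unadjusted p of 0.0494 and an adjusted p of 0.363 in limma. Mybpc1 was the 1 of 9 tested members with an unadjusted p under 0.05, where 13.7% of all probe sets had one. It was also the 1 higher without overlap, where 6.12% were. The members were chosen with earlier results of these data known, so these shares are no test of Mybpc1. The percentile of Mybpc1 ran from 30.2 to 41.9, so it was a dim probe set on every array.

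The heavy chain genes of the fast myosins lie next to each other in a cluster of closely similar genes, so their probe sets may share signal. Myh2, the IIa heavy chain, measured 3.95, 4.08 and 3.93 on the knockout arrays against 4.26, 3.91 and 3.99 on the wild-type arrays. Wild-type replicate 1 was the highest array and wild-type replicate 2 the lowest, and the knockout arrays lay between them (difference -0.07, 95% interval -0.37 to 0.24, limma adjusted p = 0.87). Myh4, the IIb heavy chain of the fastest fibres, measured 3.10, 3.47 and 3.05 on the knockout arrays against 3.25, 3.25 and 3.14 on the wild-type arrays. Its mean was under the filter of 3.45 and it was therefore not tested. In the fit without a filter its difference was -0.01 (95% interval -0.35 to 0.34). Mylpf, the fast regulatory light chain, measured 3.63, 3.60 and 3.84 on the knockout arrays against 3.77, 3.79 and 3.38 on the wild-type arrays, with the genotypes interleaved (difference 0.04, 95% interval -0.31 to 0.40, adjusted p = 0.933).

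The fast troponin genes encode the 3 subunits of the calcium switch on the thin filament. Tnnt3, the subunit that binds tropomyosin, measured 5.09, 5.13 and 5.25 on the knockout arrays against 5.23, 5.15 and 5.13 on the wild-type arrays. These values coincided, with a difference of -0.01 (95% interval -0.22 to 0.20, limma adjusted p = 0.965) whose sign turned with quantile normalization and with median centring. Tnni2, the inhibitory subunit, measured 5.35, 5.37 and 5.53 on the knockout arrays against 5.57, 5.46 and 5.59 on the wild-type arrays. Knockout replicates 1 and 2 were below all wild-type arrays and replicate 3 was not (difference -0.12, 95% interval -0.34 to 0.09, adjusted p = 0.622). Tnnc2, the calcium-binding subunit, measured 4.16, 4.22 and 4.32 on the knockout arrays against 4.22, 4.34 and 4.35 on the wild-type arrays. Its genotypes overlapped (difference -0.07, 95% interval -0.31 to 0.17, adjusted p = 0.823).

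Actn3, the alpha-actinin of the Z-disc in fast fibres, measured 4.72, 4.81 and 4.67 on the knockout arrays against 4.54, 4.45 and 4.74 on the wild-type arrays. Wild-type replicate 3 lay within the knockout values and the other two wild-type arrays below them. The log2 difference of 0.16 (95% interval -0.10 to 0.42) had an adjusted p of 0.606 in limma. It was 0.09 with wild-type replicate 2 left out, 0.24 with wild-type replicate 3 left out and 0.07 with age as a covariate.

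Both calcium-handling genes varied more within the wild type than within the knockout. Atp2a1, the calcium pump SERCA1 of fast fibres, measured 4.67, 4.62 and 4.78 on the knockout arrays against 5.14, 4.57 and 4.78 on the wild-type arrays. The high wild-type replicate 1 set the direction, since the difference of -0.14 (95% interval -0.50 to 0.22, limma adjusted p = 0.755) became 0.015 without it. Casq1, the main calsequestrin of skeletal muscle, which stores calcium in the sarcoplasmic reticulum, measured 6.02, 5.80 and 5.99 on the knockout arrays against 5.60, 6.10 and 5.49 on the wild-type arrays. Wild-type replicate 2 was the highest of the 6 arrays and the other two wild-type arrays the lowest. The difference was 0.21 (95% interval -0.17 to 0.59, adjusted p = 0.647). It rested on single arrays, at 0.39 with wild-type replicate 2 left out (unadjusted p = 0.0101, adjusted p = 0.263) and 0.09 with wild-type replicate 3 left out (unadjusted p = 0.614).

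**Figure D3:**
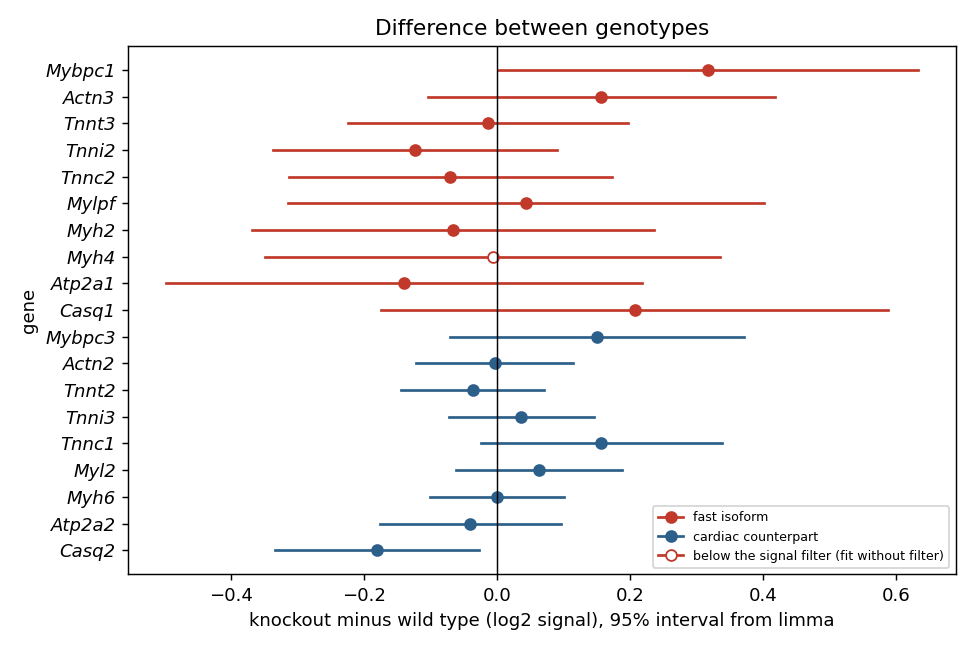
Knockout minus wild-type difference in log2 signal with its 95% interval from limma for the 10 fast isoforms (red) and their 9 cardiac counterparts (blue); the open point, Myh4, was under the signal filter and comes from the fit without it. Intervals of 8 tested fast isoforms and of Myh4 include 0, and that of Mybpc1 starts at 0.00.

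Of the 9 tested members 4 were higher in the knockout and 5 lower, with a median log2 difference of -0.01. Over all probe sets tested, 9985 were higher and 14700 lower, with a median of -0.04. These were 11954 and 12910 after quantile normalization, and 11792 and 13003 with wild-type replicate 1 left out. The members were 5 higher and 4 lower under either quantile normalization or median centring, and 7 and 2 with wild-type replicate 1 left out. None of the members tested passed the adjusted threshold in limma under the deposited scaling or in the 16 alternatives, of which the filter at the 50th percentile left 5 members to test. The intervals of the 9 tested members ran from -0.50 at the lowest to 0.63 at the highest on the log2 scale, and those of the 3 troponin genes stayed between -0.34 and 0.20.

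No array held the members high or low as a group. Knockout replicate 2 carried the highest value of 3 members, knockout replicate 3, wild-type replicate 1 and wild-type replicate 3 of 2 each, and wild-type replicate 2 of 1. Knockout replicate 1 carried the lowest value of 3 members and the highest of 0. The median deviation of the 10 members from their wild-type means ran from -0.09 in knockout replicate 1 to 0.05 in knockout replicate 3. Their mean log2 signal was 4.45 to 4.53 on knockout arrays against 4.43 to 4.51 on wild-type arrays, so the genotypes overlapped.

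Knockout replicate 2 stood apart in genes of the atrial chambers. Myl7, the atrial regulatory light chain, measured 7.22 there and 3.61 to 4.11 on the other 5 arrays, and Myl4, the atrial essential light chain, 8.67 against 5.41 to 5.61. The mean of 6 atrial genes was 6.34 on that array and 4.90 to 5.18 elsewhere. Nppa was also highest there, at 11.44 against 10.67 to 11.13 on the rest. So were Sln, a dim gene, at 3.49 against 2.51 to 3.12, and Dkk3 at 4.51, just above wild-type replicate 3. Bmp10, a defining atrial gene, was at 2.68, within 2.43 to 2.90 for the rest. It lay below the 20th percentile on every array, so its values cannot show whether it rose with the others. Mybpc1 and Myh4 were also at their highest on knockout replicate 2, as was Actn3. Without it the difference of Mybpc1 was 0.21 (unadjusted p = 0.17, limma adjusted p = 0.611). The genotypes still did not overlap in Mybpc1, which then held for 28.8% of all probe sets in either direction. Higher without overlap, as Mybpc1 was, were 2485 of 24893. No tested member then had an unadjusted p under 0.05, against 12% of all probe sets. The part of the atrial genes in these values was not tested. In whole-tissue RNA, more cells of a type and more RNA per cell cannot be told apart.

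**Figure D4:**
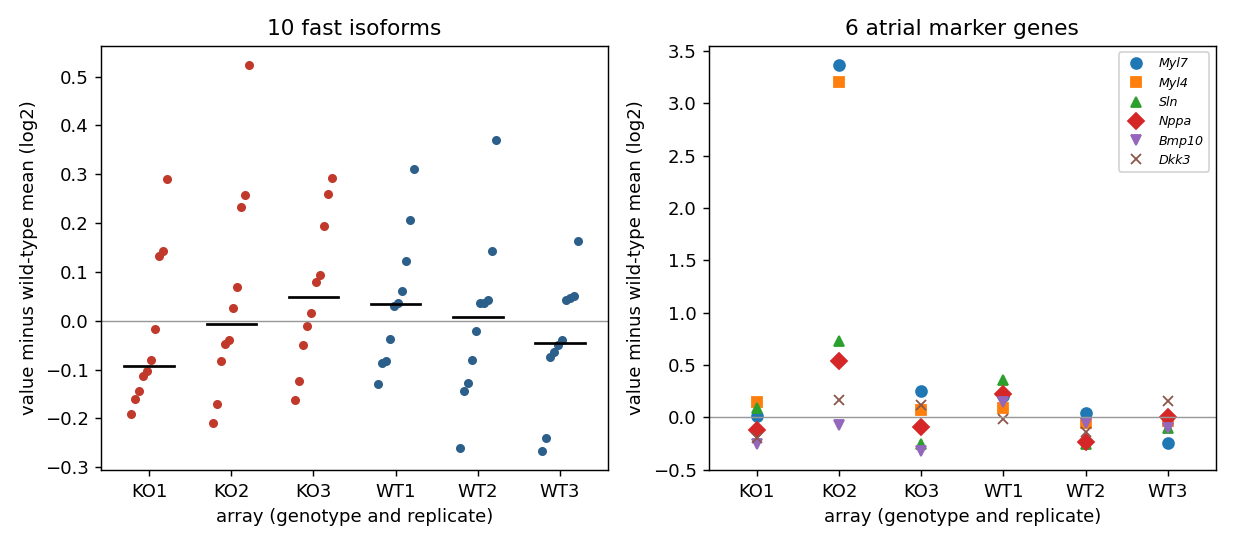
Value minus the wild-type mean of the same gene (log2) on each array, for the 10 fast isoforms (left, one point per gene, black bar at the median) and 6 atrial marker genes (right, one symbol per gene). The medians of the fast isoforms stay between -0.09 and 0.05, and Myl7 and Myl4 stand out on knockout replicate 2 only; the vertical scales differ.

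The cardiac counterparts of the members carry the contraction and calcium handling of the ventricle. Tnnt2, Myh6 and Atp2a2, the cardiac troponin T, alpha-myosin and SERCA2 genes, measured 12.96 to 13.05, 12.70 to 12.72 and 12.77 to 12.94 over the 6 arrays. All 9 were tested, 4 higher, 4 lower and Myh6 at 0.00, with a median difference of 0.00, and none passed the adjusted threshold. The split was 7 higher and 2 lower after quantile normalization, and 6 and 3 after median centring. Casq2, the cardiac calsequestrin and counterpart of Casq1, measured 10.77, 10.74 and 10.57 on the knockout arrays against 10.90, 10.84 and 10.88 on the wild-type arrays. It was lower without overlap (difference -0.18, SE 0.07, unadjusted p = 0.0269, limma adjusted p = 0.299), the 1 of 9 counterparts with an unadjusted p under 0.05. Over all probe sets, 13.7% had such a p and 12.9% were lower without overlap. Tnnc1, Mybpc3 and Myl2 measured differences of 0.16, 0.15 and 0.06 with overlapping genotypes, and of 0.09, 0.04 and 0.03 when wild-type replicate 3 was left out. Age as a covariate gave 0.25 for Tnnc1 and 0.11 for Myl2, and Mybpc3 was at 0.23 when wild-type replicate 1 was left out.

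A further 20 skeletal muscle genes outside the members were compared, of which 18 were tested. Among these, 6 were higher and 12 lower, with a median of -0.03, and none passed the adjusted threshold in limma, while 2 had an unadjusted p under 0.05, where 13.7% of all probe sets had one. Without knockout replicate 2 the split was 9 higher and 9 lower. Neb, which encodes nebulin, the giant protein along the skeletal thin filament, was the larger of these, at 5.64, 5.53 and 5.56 in the knockout against 4.78, 5.14 and 5.16 in the wild type. All 3 knockout arrays lay above the wild type, by 0.55 on average (SE 0.12, adjusted p = 0.12). When only annotated probe sets were tested its adjusted p was 0.0334, within a range of 0.0334 to 0.308 over all alternatives. Myoz3, a Z-disc protein gene of fast fibres, went the other way, with a difference of -0.24 (unadjusted p = 0.0479, adjusted p = 0.359). Mylk2, the skeletal myosin light chain kinase gene, measured 0.16 higher without overlap (adjusted p = 0.542), and Sypl2, a gene of the triad membranes, 0.17 higher with overlap.

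A few of these 20 skeletal muscle genes stayed near the 30th percentile, and most stood above it. Pvalb, the calcium buffer parvalbumin of fast fibres, measured 3.20 to 3.74 over the 6 arrays and Myh1, the IIx heavy chain gene, 3.33 to 3.81. Ampd1, the AMP deaminase of skeletal muscle, was below that percentile on every array, at 2.97 to 3.29. These 3 genes were named after their values were seen. On all 6 arrays 17 of the 20 were at or above it, among them Ryr1 and Cacna1s, the skeletal calcium release channel and its voltage sensor, as well as Mybpc2, Myl1, Myh8, Myoz1, Cacng1, Stac3, Jsrp1 and Klhl40. Tmod4, Klhl41 and Art1 were far brighter than the rest, between the 82.7th and 93.3rd percentile. The mean of the 20 genes was 5.10 to 5.20 on knockout arrays against 5.10 to 5.16 on wild-type arrays.

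Genes of myogenic precursors and of the motor endplate, which mark skeletal muscle, gave low to middling signals. Pax7 and Chrnb1 were at or above the 50th percentile on all 6 arrays. The mean of 12 such genes was 3.82 to 3.90 on knockout arrays against 3.84 to 3.94 on wild-type arrays. Myf6, a myogenic transcription factor gene, and Musk and Chrna1, genes of the endplate, were below the 30th percentile on every array and were likewise named after their values were seen. Myod1, Myog, Pax7, Pax3, Chrnb1, Chrne and Chrng were at or above it on all 6, none beyond the 55.5th percentile. Of 9 tested, 4 were higher, 4 lower and Myog at 0.00, and 0 had an adjusted p under 0.05 in limma or an unadjusted p under 0.05, although Pax7 was lower without overlap (difference -0.21, adjusted p = 0.396).

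Slow muscle genes, several of which the heart also uses, were tested in full. Of 7, 6 were higher and 1 lower with a median of 0.03, and none had an adjusted or unadjusted p under 0.05 in limma. Over all probe sets tested, 9985 were higher and 14700 lower. The slow muscle split was 4 higher and 3 lower when either wild-type replicate 2 or wild-type replicate 3 was left out. Tnni1, the slow troponin I of skeletal muscle and fetal heart, measured 4.36, 4.62 and 4.65 on the knockout arrays against 4.51, 4.72 and 4.27 on the wild-type arrays, with overlap. Myh7b, a slow myosin gene, measured 0.14 higher (adjusted p = 0.656).

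Regulators of fibre type were compared because some of them keep skeletal isoforms off in the heart. Of 13 tested regulators 12 were lower and 1 higher, with a median of -0.09, and none passed the adjusted threshold in limma. Those with an unadjusted p under 0.05 were 3, all lower without overlap, where 9.02% of all probe sets had such a p in that direction and 12.9% were lower without overlap. Without knockout replicate 2 these were 4 and 5 regulators, where 7.56% and 18.8% of all probe sets were. After quantile normalization they were 2 and 3 (1767 and 2637 of all 24891 probe sets), and after median centring 2 and 2 (1816 and 2608 of 24894). They were 2 and 3 without knockout replicate 3 (1498 and 4334 of 24900) and without wild-type replicate 2 (2062 and 5128 of 24889). Without wild-type replicate 3 they were 4 and 7 (2348 and 5465 of 24889). Prox1, a homeobox gene whose product represses fast skeletal genes in heart muscle, measured 7.94, 7.88 and 7.51 on the knockout arrays against 8.04, 8.33 and 8.01 on the wild-type arrays. The difference was -0.35 (SE 0.14, unadjusted p = 0.0342, adjusted p = 0.322). Leaving out knockout replicate 3 gave -0.22 (unadjusted p = 0.0972), and leaving out wild-type replicate 2 gave -0.25 (unadjusted p = 0.115). Mef2d and Mef2a, muscle transcription factor genes, measured differences of -0.34 (adjusted p = 0.155) and -0.22 (adjusted p = 0.166), and a second Mef2d probe set one of -0.24. Eya1, a co-activator of the fast fibre programme, measured -0.24 with overlap (adjusted p = 0.445).

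The list of hypertrophy genes went both ways. Of 10, 6 were higher and 4 lower, with a median of 0.08, which was -0.05 without knockout replicate 2. Acta1, the skeletal alpha-actin, measured 10.02, 9.72 and 9.69 on the knockout arrays against 9.15, 9.15 and 9.36 on the wild-type arrays, without overlap. Its difference of 0.59 (SE 0.10) had a limma adjusted p of 0.0773, and 0.012 when only annotated probe sets were tested. It stood between the 95.2nd and 97.6th percentile of all arrays, so unlike the 10 members this skeletal gene was among the bright genes in both genotypes. Xirp2, a gene of the intercalated disc, measured 0.22 higher without overlap (adjusted p = 0.197). Over all probe sets, 6.12% were higher without overlap. The rest of the list overlapped between genotypes. Nppb, Myh7, Ankrd1 and Fhl1 measured differences of -0.14, -0.08, -0.16 and -0.19. In Nppb, Myh7 and Ankrd1 wild-type replicate 3 was the lowest array, at 8.51, 7.48 and 11.54. Wild-type replicates 1 and 2 lay above every knockout array in these genes. With wild-type replicate 3 left out, 3 of the 10 list genes were lower without overlap. Lower with an unadjusted p under 0.05 in limma were 3 as well. Over all 24889 probe sets then tested, these were 5465 and 2348. Nppa and Tnni1 measured 0.11 and 0.04, and Myl4 and Myl7, high on knockout replicate 2 alone, 1.14 and 1.21.

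**Figure D5:**
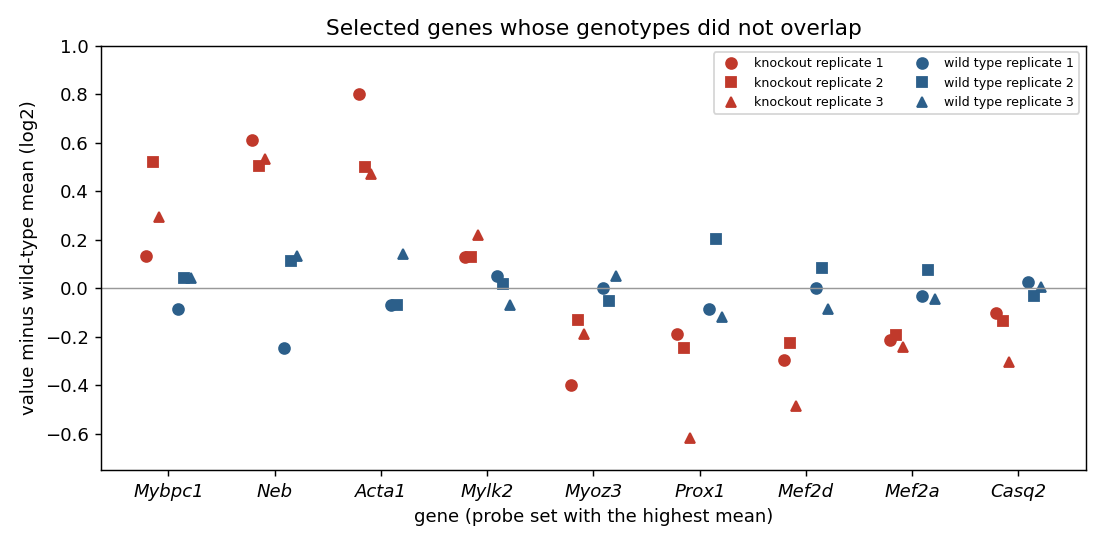
Value minus the wild-type mean of the same gene (log2) on each array for 9 genes of the lists whose genotypes did not overlap, with red symbols for the knockout, blue for the wild type and shape for the replicate. Mybpc1, Neb, Acta1 and Mylk2 lie higher in the knockout and Myoz3, Prox1, Mef2d, Mef2a and Casq2 lower; the genes were picked for this separation and none passed the adjusted threshold over all 24898 probe sets tested.

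Smooth muscle genes, markers of vessel walls, were higher in 5 of 6 tested genes with a median of 0.13. Myh11, the smooth muscle myosin, measured 0.35 higher and Tagln, an actin-binding protein gene, 0.42 higher, both without overlap (limma adjusted p = 0.113 and 0.276). The mean of the 6 genes ran from 5.62 to 5.72 in the knockout and from 5.41 to 5.63 in the wild type. Actg2, an enteric smooth muscle actin, was lower without overlap at -0.21 (adjusted p = 0.487). Over all probe sets tested, 9985 were higher and 14700 lower, and 6.12% were higher and 12.9% lower without overlap. Of the other cell types, 5 of 6 leukocyte genes were lower with a median of -0.21, C1qb of macrophages the most at -0.51 (adjusted p = 0.14). Fibroblast genes were lower in 6 of 7 with a median of -0.02, and in 4 of 7 after quantile normalization or median centring. Endothelial genes were higher in 4 of 6 with a median of 0.06, and adipocyte genes in 3 of 6 with a median of -0.07. None of these genes passed the adjusted threshold over all probe sets, and Myh11 and C1qb did when only annotated ones were tested (adjusted p = 0.0456 and 0.037). No marker is at 0, since the lowest value in the table is 0.46. The part of these cell types in the differences of Neb, Acta1 and Mybpc1 was not tested.

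The 3 genes whose profile over the 6 arrays was most like that of Mybpc1, among 15297 genes searched, were Ankdd1a, Gria3 and Zfp112. The root mean square difference of their centred log2 profiles from that of Mybpc1 was 0.049, 0.05 and 0.068. They measured differences of 0.28, 0.26 and 0.24 between genotypes, with limma adjusted p of 0.301, 0.483 and 0.443. Because the genes were chosen for this likeness, their differences and their highest array, knockout replicate 2 as for Mybpc1, follow from the choice and are given as a description. In Gria3 the genotypes overlapped.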

How the data were processed

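Expression in 6 arrays was read from 1 table the authors deposited, which holds log2 values per probe set and array. MAS5 is named in the submitters' processing notes, with no role. Probe summarization, scaling and genome build were among the details not given in the sources used. The log2 scale was inferred from the values, which run from 0.46 to 13.72. Gene symbols came from the platform annotation and were updated by RefSeq gene identifier (GRCm38.p6), which matched 21698 of 21789 probe sets with 1 symbol. A further 12146 were not listed and 1621 had several symbols.

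Knockout and wild type were tested with limma 3.58.1 under R 4.3.3, using lmFit and eBayes with a trend on mean signal, two-sided. The fit covered the 24898 probe sets whose mean reached the 30th percentile (3.45), and p-values were adjusted over all of them by Benjamini-Hochberg. The fit was also run on simulated data. That run gives no measure of how well differences as small as those of the members are found. For list genes with several probe sets, the one used was the brightest. Genes named are the members, their counterparts, Cavin4, up to 4 tested genes per list by smallest p, skeletal and myogenic genes above the 30th percentile on all arrays, and the 3 genes closest to Mybpc1. Genes named beyond these were picked after their values were seen, and within the rule only some are quoted. The members and lists were chosen with earlier results of these data known. The number of arrays limits the precision. The alternatives varied the filter, scaling, probe sets, trend, weights, age, replicate block and arrays.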

Additional observations from a re-analysis of the deposited data

How the results depend on the processing

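The number of probe sets past the adjusted threshold, 1 in the main analysis, was 48 with a filter at the 50th percentile, 130 after quantile normalization, 105 after median centring, 361 among annotated probe sets only, 126 with array weights and 34 with age as a covariate. Leaving out 1 array gave 0 to 11, with 0 when knockout array 1, knockout array 3 or wild-type array 1 was dropped, 2 when knockout array 2 was and 11 when wild-type array 2 was. In limma 3417 had an unadjusted p under 0.05 where 1 passed. With the replicate number as a block it was 0, with the Cavin4 change at -2.91 and its adjusted p at 0.0754. Deviations of same-numbered arrays correlated at -0.03, 0.01 and -0.02, so no shared deviation was seen. Whether the numbers pair the samples cannot be told from these correlations. Leaving out 1 array gave Cavin4 changes of -3.115 to -2.775, with adjusted p of 0.0646, 0.118 and 0.0777 without knockout replicate 1, knockout replicate 3 and wild-type replicate 1. The count of members past the threshold was 0 in all 16 alternatives, with 5 members tested under the filter at the 50th percentile. Tnnt3 turned to 0.018 after quantile normalization, 0.0067 after median centring and 0.055 with age as a covariate. Leaving out 1 array gave -0.06 to 0.02 for Tnnt3, -0.09 to 0.11 for Mylpf, -0.138 to 0.037 for Myh2 and -0.27 to 0.015 for Atp2a1. Over all alternatives Actn3 ranged from 0.07 to 0.24, Casq1 from 0.09 to 0.39, Tnni2 from -0.18 to -0.07 and Tnnc2 from -0.11 to -0.03, and Mylpf reached 0.21 with age as a covariate. Mybpc1 kept its direction in the 15 alternatives that tested it, from 0.21 to 0.41 with adjusted p from 0.248 to 0.618, and its unadjusted p ranged from 0.0264 to 0.17. Members at or above the 50th percentile on all 6 arrays were 3, against 8 at the 30th. Detection calls and background signals were not used here, so what part of the signal of a dim member is its own RNA is unknown. Neb, Acta1, Myh11 and C1qb, the last lower in the knockout, passed the threshold among annotated probe sets only, with adjusted p of 0.0334, 0.012, 0.0456 and 0.037. The cause of these changes was not tested.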
